A study of Mus musculus with 2 samples.

Results

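Keratins are the intermediate filament proteins of epithelia. A filament is built from pairs of a type I and a type II keratin, and an epithelium is recognised by the pairs that it uses: Krt5 with Krt14 in basal layers, Krt8 with Krt18 in simple epithelia, Krt1 with Krt10 in the upper layers of the epidermis, and a further set in the hair follicle. In the thymus, KRT8 is used to mark cortical thymic epithelial cells (cTECs), KRT5 and KRT14 to mark medullary ones (mTECs), and mTECs that express Aire also transcribe, each in few cells, genes of peripheral tissues.

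The keratin genes were followed in single-cell RNA sequencing of thymic epithelial cells (TECs). The family was taken as the symbols made of Krt and a number, and its members were chosen by measured values: they had at least 20 unique molecular identifiers (UMIs, each of which marks 1 captured RNA molecule) over the kept cells of both libraries. Of 49 such symbols among 32285 listed genes, 48 were members, 25 of type I and 23 of type II, and all 48 were found by identifier in GENCODE on GRCm38. Krt39 (23 UMIs), Krt31 (24 UMIs) and Krt26 (48 UMIs) lay just inside the threshold, and Krt40 (5 UMIs) lay outside it. Krt6a, Krt6b, Krt33a and Krt33b, with 626, 393, 120 and 579 UMIs, have a letter after the number and were not members.

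TECs were sorted as EPCAM+ cells without CD45 and TER119 from C57BL/6 mice, 15 days after sublethal irradiation or without irradiation, and each condition was measured as 1 library from a pool of 3 mice. No transgene or deletion is named in either group. For the age of the mice of both groups, the labels hold 2 values, 9 weeks in one field and 4 weeks in another. The study used female mice with age-matched controls, and the age that it gives at irradiation is above 4 weeks. The library with 4937 barcodes is labelled radiation and the one with 7167 barcodes is labelled control, whereas the names of the deposited files and the cell numbers of the study mark the larger library as irradiated. The libraries are therefore called the smaller and the larger one, every ratio is of the larger over the smaller, and no condition is assigned to either, because all directions would be read the other way under the other assignment.

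The smaller library held 58185309 UMIs and the larger 82201657, of which the filters kept 3233 and 5070 cells with medians of 13412 and 13003.5 UMIs. The kept cells of the libraries shared 5 barcodes. Levels are summed UMIs of a gene per 10000 summed UMIs of the cells concerned, with exact Poisson 95% intervals that cover counting error only. With 1 library per condition there is no replicate check, cells of a pool are not replicates, and no test was made. UMIs were counted at the 3′ ends of transcripts and are not scaled by length, so a level compares cells for 1 gene better than it compares genes. In pooled sums, fewer cells of a type and less RNA per cell cannot be told apart.

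Cells were clustered with every keratin left out of the features, so that keratin levels had no part in making the clusters, and 13 clusters were found. By markers without keratins, cluster 7 was cTEC-like (led by Psmb11 and Prss16), clusters 1 and 2 were Ccl21a+ mTEC-like (both with Ccl11 among the leading genes), clusters 5 and 6 were transit-amplifying mTEC-like (TA-mTEC-like, led by replication genes such as Mcm5 and by mitosis genes such as Ccnb1), cluster 3 was Aire+ mTEC-like with 13.4 Aire UMIs per 10000, cluster 9 was tuft-like (Gnat3, Il25) and cluster 12 was ciliated-like. The others kept their numbers. Cluster 0 held 7.85 Aire UMIs per 10000 and was led by Serpinb12 and Pcp4, cluster 4 was led by Prss23 and Prelp, cluster 8 by genes of several peripheral epithelia (Spink5, Ccl6, Muc13), cluster 10 held cTEC genes together with thymocyte genes, and cluster 11 was led by genes of neuroendocrine cells such as Chgb. Cluster 2 also had the stress genes Atf3 and Rrad among its leading 10. Clusters 0 to 9 held at least 100 cells in each library. Of markers for other cell types, the 11 thymocyte genes summed to 30.5 UMIs per 10000 in cluster 10 and to at most 0.919 in the clusters compared, and Dcn, which fibroblasts express, reached 14.7 in cluster 4.

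The 48 keratins together held 1214473 UMIs, 95.5 per 10000. Of these, 6 genes held 95.2%: Krt17 (407755 UMIs), Krt8 (261732), Krt18 (201393), Krt14 (126984), Krt5 (99209) and Krt7 (58799). The other 42 keratins held 4.83%, or 58601 UMIs. The summed level of the family ranged from 64.7 in cluster 0 to 153.3 in cluster 2 among clusters 0 to 9. Over both libraries, type I UMIs were 1.31 times the type II UMIs in cluster 0 and 2.35 times in cluster 5. In tuft-like cluster 9 the types were near-equal, at 1.035 times in the smaller and 0.995 times in the larger library.

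Krt5 and Krt14, the pair of basal epithelial layers, were highest in the Ccl21a+ mTEC-like clusters. Krt5 was at 23.0 UMIs per 10000 in the smaller and 24.1 in the larger library in cluster 2, and at 16.7 and 16.9 in cluster 1. It was at 14.5 and 16.0 in the replicating cluster 5, and at 4.88 and 7.19 in the mitotic cluster 6. In Aire-high cluster 3 its level was 0.669 and 1.06, and in cluster 0 it was 0.956 and 1.44, so the clusters richest in Aire had the lowest Krt5 of clusters 0 to 9. Krt14 was at 28.2 and 28.5 in cluster 2, at 26.4 and 26.9 in cluster 1, and at 3.97 and 4.72 in cluster 3. It was lowest in tuft-like cluster 9 among clusters 0 to 9, at 2.69 and 2.19. The levels of Krt5 and Krt14 over the 13 clusters went together, with a Pearson r of 0.86 in the smaller and 0.85 in the larger library on the log2 scale of UMIs per 10000 plus 0.1. In cTEC-like cluster 7, Krt5 was at 6.22 and 9.47 and Krt14 at 4.12 and 2.97.

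Krt17, a type I keratin of skin appendages and of activated epidermis, was the most abundant keratin by UMIs. It was highest in cluster 5, at 73.4 UMIs per 10000 in the smaller and 71.5 in the larger library. It was next highest in cluster 2, at 54.4 and 59.7. Among clusters 0 to 9 it was lowest in the tuft-like cells of cluster 9, at 5.62 and 6.54. It was lower still in the 21 ciliated-like cells of cluster 12, at 4.66 and 2.57. In the 43 cells of cluster 11 it was at 6.54 and 1.64, above cluster 9 in the smaller library and below it in the larger. Its pattern over clusters was most like that of Krt5 in both libraries (r = 0.74 and 0.82). Krt7, a type II keratin of ducts and glands, was also most like Krt5 (r = 0.64 and 0.59). Krt7 was at 8.21 and 10.5 in cluster 2 and reached 12.4 over both libraries in the 43 cells of cluster 11, where Krt5, Krt14 and Krt17 were low.

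Krt8 and Krt18, the pair of simple epithelia, were highest in cTEC-like cells among clusters 0 to 9. In cluster 10, which held thymocyte genes beside cTEC genes, they were at 44.5 and 52.4 over both libraries. Krt8 was at 41.6 UMIs per 10000 in the smaller and 42.8 in the larger library in cluster 7, at 37.2 and 36.8 in tuft-like cluster 9, and at 29.6 over both libraries in ciliated-like cluster 12. In the mTEC-like clusters 1, 2, 3, 5 and 6 its level over both libraries lay between 14.2 and 20.1, a narrow range beside that of Krt5. Krt18 was at 56.1 and 57.9 in cluster 7, at 28.8 and 26.7 in cluster 9, and at 4.75 and 4.83 in the mitotic cluster 6, its lowest. Over clusters, Krt8 went with Krt18 (r = 0.78 in both libraries) and against Krt14 (r = -0.78 and -0.81). These coefficients describe 13 clusters that share libraries.

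**Figure D1:**
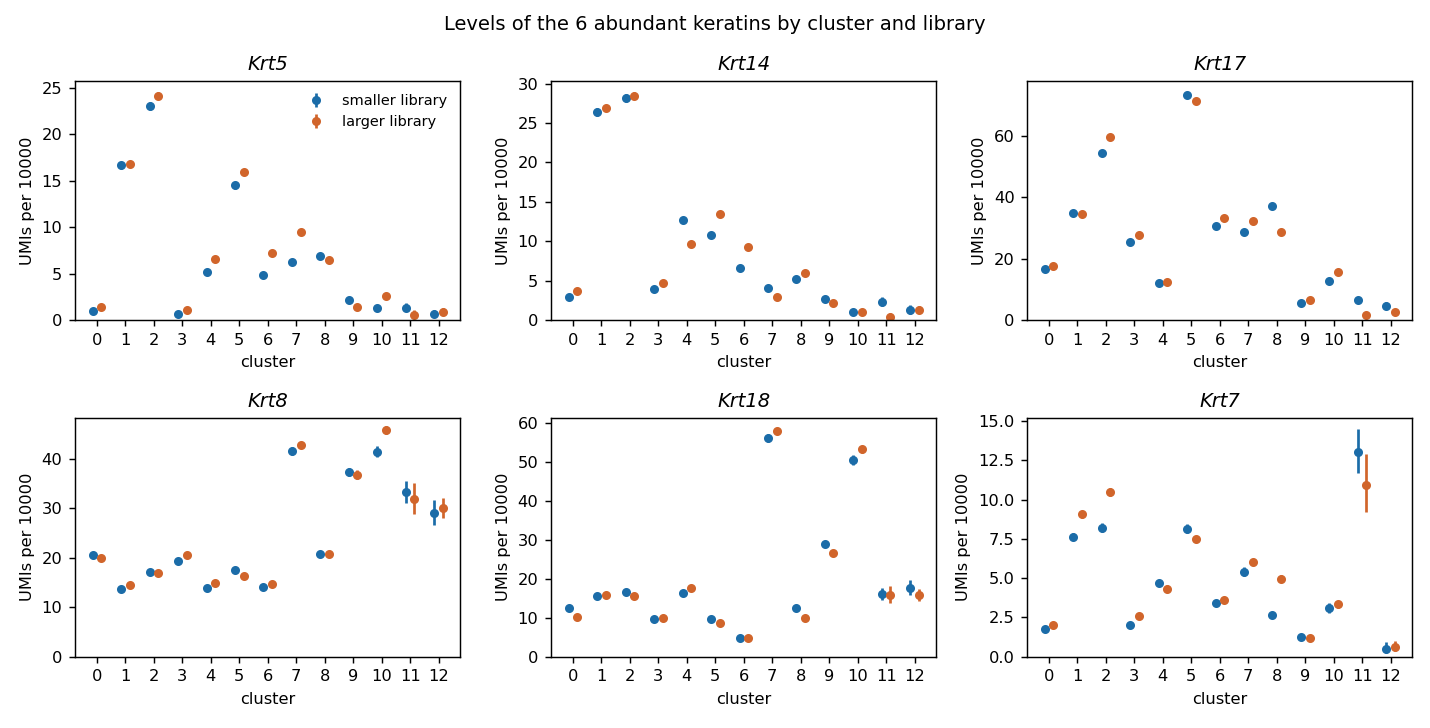
UMIs per 10000 of the 6 abundant keratins (y axis, a scale of its own for each gene, from 0) in clusters 0 to 12 (x axis), in the smaller library (blue) and the larger library (orange), with bars for exact Poisson 95% intervals, most of which are smaller than the points. Krt5 and Krt14 peak in clusters 1 and 2, Krt17 in cluster 5, and Krt8 and Krt18 in clusters 7 and 10, and in clusters 0 to 9 the libraries lie close together for most genes.

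KRT5 and KRT8 are often stained together, so their detection in the same cell was counted after each cell had been thinned at random to 4000 UMIs. At least 1 UMI of each was found in 96.7% of the cells of cluster 2 (95% interval 95.4 to 97.7, exact Clopper-Pearson, counting error only) and in 92.8% of those of cluster 1. The share was 85.2% in cluster 5, 64.6% in cTEC-like cluster 7 and 45.4% in cluster 4. In clusters 0 and 3 it was 16.6% and 17.9%, close to the 15.4% of tuft-like cells (46 cells, 11.49 to 19.98) and the 16.3% of cluster 11. After thinning, most cells of clusters 0, 3, 9 and 11 held no Krt5 UMI. These shares are therefore not read as Krt5 expression of the whole cluster. Single cells there could hold many Krt5 UMIs. The most in a cell of the smaller and larger library were 69 and 105 in cluster 0, 32 and 43 in cluster 3, and 58 and 67 in cluster 9. Free RNA in the droplets was not measured. Median depths before thinning were 14734 UMIs in cluster 0, 19682 in cluster 3 and 11785 in cluster 9, and without thinning the shares were 33.1%, 39.9% and 23.4%. Krt8 alone was found in 94.0% to 99.8% of thinned cells in clusters 0 to 9, so the share with both was close to the share with Krt5.

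The other 42 keratins had another distribution. Of them, over both libraries, 24 were highest in cluster 0, 4 in Aire+ mTEC-like cluster 3 (Krt12, Krt4, Krt72 and Krt28), 12 in cluster 8, and 2 in tuft-like cluster 9 (Krt19 and Krt222). Members were chosen by at least 20 UMIs over all kept cells. Some, such as Krt26, Krt34 and Krt39, reached this minimum only through clusters 0 and 3. Their place in these counts was therefore partly fixed by the choice of members. The place of the 4 in cluster 3 was not firm. In the smaller library Krt12 was near-equal in clusters 0 and 3, and Krt72 was higher in cTEC-like cluster 7. In the larger library Krt4 was higher in cluster 8. Of the 136 Krt28 UMIs, 68 came from 1 cell. The share of all genes that were highest in each of these clusters was not counted. These counts are therefore not read as particular to keratins. Their summed level was 9.45 UMIs per 10000 in cluster 0, 5.30 in cluster 3, 22.6 in cluster 8 and 5.36 in cluster 9, against 0.834 to 1.66 in clusters 1, 2, 4, 5, 6 and 7. Clusters 0 and 3 held 55.1% of their UMIs and 29.1% of the cells, and cluster 8 held 25.9% of their UMIs and 5.396% of the cells. After thinning, a cell of cluster 0 held a mean of 1.60 distinct keratins of the 42, a cell of cluster 3 held 1.005, and a cell of cluster 1 held 0.322. The 6 markers of dendritic cells and macrophages were also highest there: they summed to 8.24 UMIs per 10000 in cluster 0, 6.11 in cluster 3 and 6.94 in cluster 8, and to at most 1.19 in the others of clusters 0 to 9. Nearly all of this was Lyz2 (7.82, 5.83 and 6.82), while Adgre1, Csf1r, Flt3, Itgax and Xcr1 were each at 0.181 or less. The part of such cells in the keratin levels was not tested.

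These genes were carried by few cells. The 1% of cells with the most UMIs of a gene (84 cells) held a median of 81.6% of its UMIs over the 42 genes, from 31.3% for Krt222 to 100%, against 7.03% to 11.2% for the 6 abundant keratins. Krt71, a type II keratin of the inner root sheath of hair, had 2611 UMIs in 227 cells, with up to 211 in a cell. Krt13, which pairs with Krt4 in the lining of the mouth and oesophagus, had 1760 UMIs in 154 cells, with up to 246 in a cell. Krt27, also of the inner root sheath, had 387 UMIs in 41 cells. The Poisson intervals of such genes understate the spread that a few cells give.

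**Figure D2:**
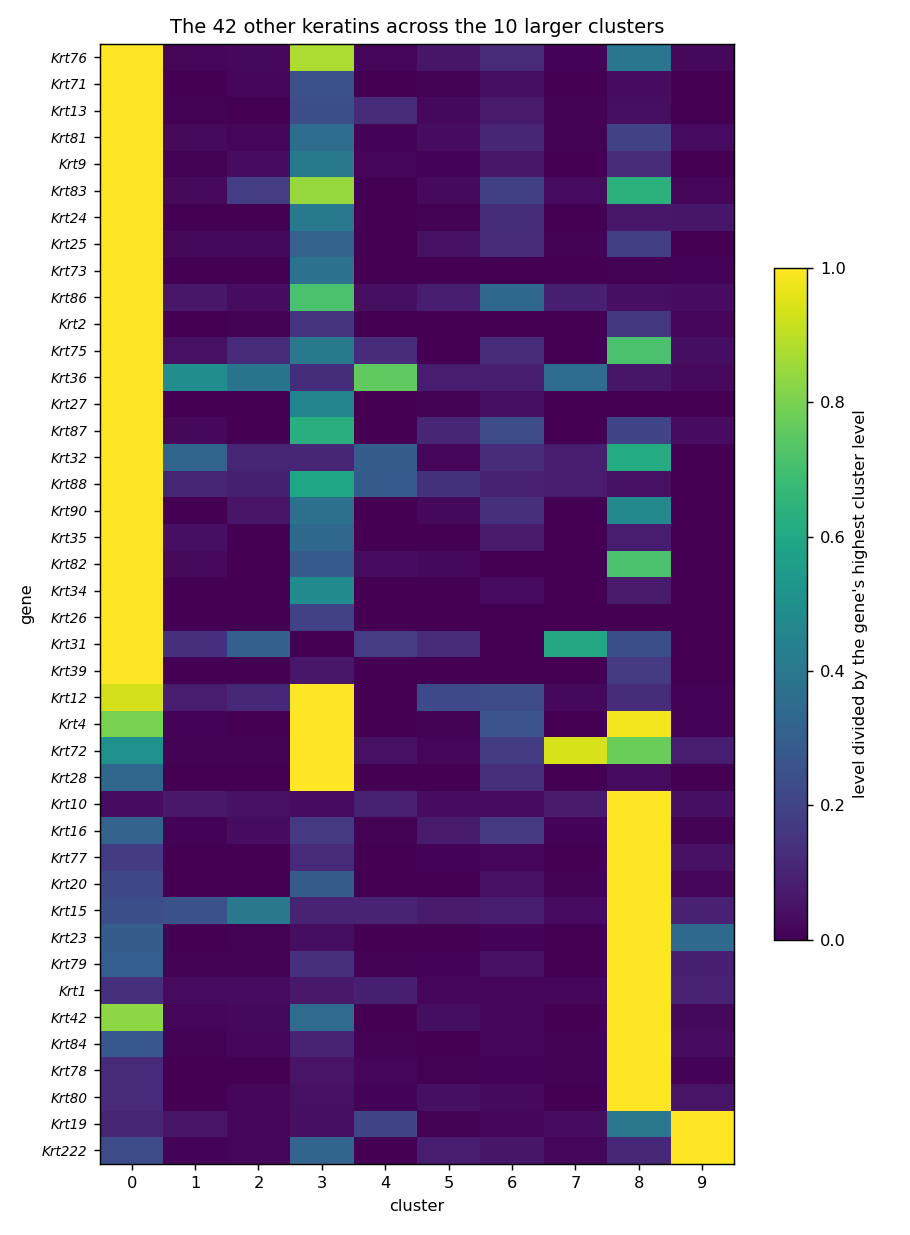
Levels of the 42 other keratins (rows) in clusters 0 to 9 (columns) over both libraries, each divided by the gene's highest level among these clusters, so that 1 (yellow) marks the highest cluster. Most rows peak in cluster 0, a block of 12 from Krt10 to Krt80 peaks in cluster 8, and Krt19 and Krt222 peak in cluster 9.

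Among keratins of the upper epidermis, Krt10 was at 7.37 UMIs per 10000 in the smaller and 3.25 in the larger library in cluster 8, and at most 0.594 in each library in the others of clusters 0 to 9. Its partner Krt1 was at 1.16 and 1.02 in cluster 8. Krt77, another type II keratin of skin, was at 4.27 and 2.07 there and at 0.599 and 0.528 in cluster 0. Krt9, the keratin of palm and sole skin, was at 0.395 and 0.326 in cluster 0 and at 0.144 and 0.146 in cluster 3. Keratins of the upper epidermis thus differed in their spread: cluster 8 held 55.5% of the Krt10 UMIs, 48.9% of those of Krt1 and 2.39% of those of Krt9, and clusters 0 and 3 held 10.9%, 32.3% and 92.3%. Krt10 went most with Krt1 over clusters (r = 0.81 and 0.66), and Krt9 with Krt71 (r = 0.97 and 0.99).

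Keratins of wounds and appendages and of mucosa followed. Krt16, a partner of the Krt6 proteins in activated epidermis, was at 3.11 and 2.42 in cluster 8 and at 0.758 and 0.995 in cluster 0, and Krt79 was at 0.979 and 1.14 and at 0.303 and 0.325. Krt42 was at 0.299 and 0.369 in cluster 8 and at 0.218 and 0.324 in cluster 0. Krt76, a type II keratin of the palate, was at 0.686 and 0.593 in cluster 0, at 0.475 and 0.613 in cluster 3, and at 0.067 and 0.458 in cluster 8. Krt13 was at 0.351 and 0.732 in cluster 0. Krt4 was at 0.138 and 0.332 in cluster 0, at 0.294 and 0.314 in cluster 3, and at 0.120 and 0.506 in cluster 8. Krt12, the keratin of the cornea, was at 0.226 and 0.320 in cluster 0 and at 0.224 and 0.347 in cluster 3. The order of clusters 0, 3 and 8 for Krt76 and Krt4 was not the same in both libraries, nor was that of clusters 0 and 3 for Krt12.

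Krt15, a keratin of basal cells and of the hair bulge, was highest in cluster 8, at 1.03 and 1.25. It was next at 0.450 and 0.459 in Ccl21a+ mTEC-like cluster 2, where the other basal keratins peaked. Of the keratins grouped here as simple, Krt19 was at 3.29 and 3.08 in tuft-like cells and at 1.25 and 1.28 in cluster 8. Cluster 4 followed with 0.820 and 0.488. Krt20, a keratin of intestinal and urothelial lining, was at 1.88 and 1.97 in cluster 8, at 0.584 and 0.550 in cluster 3 and at 0.377 and 0.445 in cluster 0. Krt23 was at 1.45 and 1.17 in cluster 8, at 0.569 and 0.244 in cluster 0 and at 0.495 and 0.396 in tuft-like cells. Krt222, a type I keratin-like gene that lacks a known place in filaments, was at 1.04 and 0.620 in tuft-like cells and at 0.336 and 0.240 in cluster 3.

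Of the hair keratins, Krt71 was at 0.760 and 0.968 in cluster 0 and 0.173 and 0.250 in cluster 3, which together held 95.7% of its UMIs. Krt81, a keratin of the hair shaft, was at 0.342 and 0.376 in cluster 0 and at 0.134 and 0.126 in cluster 3. Krt73 had 99.4% of its 673 UMIs in clusters 0 and 3, and Krt26 had all of its 48. Both reached the minimum of 20 UMIs for members only through these clusters, so their concentration there was partly fixed by that choice. Others were less concentrated there, with 52.5% for Krt84, 53.7% for Krt36 and 63.3% for Krt72. Of Krt72, cTEC-like cluster 7 held 98 UMIs, 96 of them in the smaller library, and the most Krt72 UMIs in a cell of the series were 95. Of the members not named so far that were concentrated at least 5 times in their highest cluster, Krt78, Krt80 and Krt84 were highest in cluster 8, at 11.5, 10.4 and 8.08 times their level over all cells.

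Cluster 8 was split further after its levels had been seen, into 4 sub-clusters of 175, 106, 93 and 74 cells. Of the keratins of the upper epidermis, Krt9 and Krt2 had only 2.39% and 3.88% of their UMIs in cluster 8. Within it, Krt10, Krt77 and Krt1 lay mostly in the second sub-cluster, which was keratinocyte-like (with Flg and Calm4 among its leading genes). There Krt10 was at 20.1 UMIs per 10000, Krt77 at 14.3, Krt16 at 10.4, Krt1 at 4.47, Krt79 at 3.79 and Krt78 at 1.85, and Krt17 reached 89.0. Its 53 cells of the smaller library held Krt10 at 29.9 and its 53 cells of the larger at 8.39. The first sub-cluster, enterocyte-like by Muc13 beside the leading genes Guca2a and Sis, held Krt20 at 2.01 and Krt8 at 24.8. The fourth, microfold-like by Gp2, Ccl9 and Ccl20, held the most Krt20, at 6.18 and 5.26, and little Krt18, at 4.00 over both libraries. The third, led by Bpifa1 and Ltf, held the basal keratins Krt5 at 19.7, Krt14 at 14.5 and Krt15 at 2.87, and the simple keratin Krt19 at 3.09. Levels in cluster 8 depended on which of these cells a clustering put there: with keratins among the features, Krt10 was at 11.85 in place of 5.44 and Krt20 at 0.202 in place of 1.92.

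Keratin levels were then set beside the Aire UMIs of the cell, counted after thinning to 4000 UMIs, in the 5 clusters with at least 1 Aire UMI per 10000 in both libraries (0, 3, 5, 6 and 12). Krt5 went from 9.65 UMIs per 10000 in cells without an Aire UMI to 0.856 in cells with 4 or more in the smaller library, and from 12.7 to 1.43 in the larger. Krt14 went from 8.29 to 3.64 and from 12.3 to 4.67, Krt17 from 46.1 to 22.5 and from 48.7 to 25.7, and Krt7 from 5.62 to 1.97 and from 5.84 to 2.38. Krt8 went from 20.7 to 17.4 in the smaller and from 17.3 to 18.9 in the larger library, so its direction differed between the libraries. Pooled over these clusters, the basal keratins were thus lowest where Aire was highest, but this was not particular to them. In the smaller library all 6 abundant keratins were lower with 4 or more Aire UMIs than with none. In the larger library 5 of the 6 were, all but Krt8. Krt18 was thus lower in both libraries, while Krt8 stayed within a narrow range. The share of all genes that were lower there was not counted. The makeup of clusters changed too: cluster 5, with Krt5 at 15.5 and Krt17 at 72.1 over both libraries, made up 46.0% of the cells without an Aire UMI. It made up 4.10% of those with 4 or more, and the part of this change in these levels was not tested.

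The summed level of the other 42 keratins was higher in the cells with more Aire. It was 3.93, 5.18, 5.67 and 6.80 UMIs per 10000 in cells with 0, 1, 2 to 3, and 4 or more Aire UMIs in the smaller library, and 2.57, 3.86, 4.60 and 6.55 in the larger. Over both libraries, 33 of the 42 were higher with 4 or more Aire UMIs than with none, 31 in the smaller and 37 in the larger library. The share of all genes that were higher there was not counted, so these counts are not read as particular to keratins. Keratins of the inner root sheath (7 genes) went from 0.212 to 1.00 and those of mucosa and cornea (6 genes) from 0.439 to 1.67. Those of the hair shaft (12 genes) were at 0.443, 0.665, 0.550 and 0.601, without a steady order. Krt76 went from 0.115 to 0.598, although in the smaller library it was at 0.623 with 1 Aire UMI and 0.521 with 4 or more, and Krt20 from 0.088 to 0.504. The clusters changed along this range: cluster 5 made up 46.0% of the cells without an Aire UMI and 4.10% of those with 4 or more, and cluster 3 made up 3.03% and 44.3%. Within cluster 0 the summed level was 7.98, 8.49, 9.58 and 10.8 over the 4 bins. Within cluster 3 it was 3.83 (3.398 to 4.294) in the 36 cells without an Aire UMI, 4.26 and 3.49 in the next bins and 6.06 (5.92 to 6.20) in the 605 cells with 4 or more, so that the order was not steady there. Median depth ranged from 16558.5 to 21277 UMIs over the bins of the smaller library and from 14664.5 to 17956.5 in the larger, and its part in the levels was not tested.

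**Figure D3:**
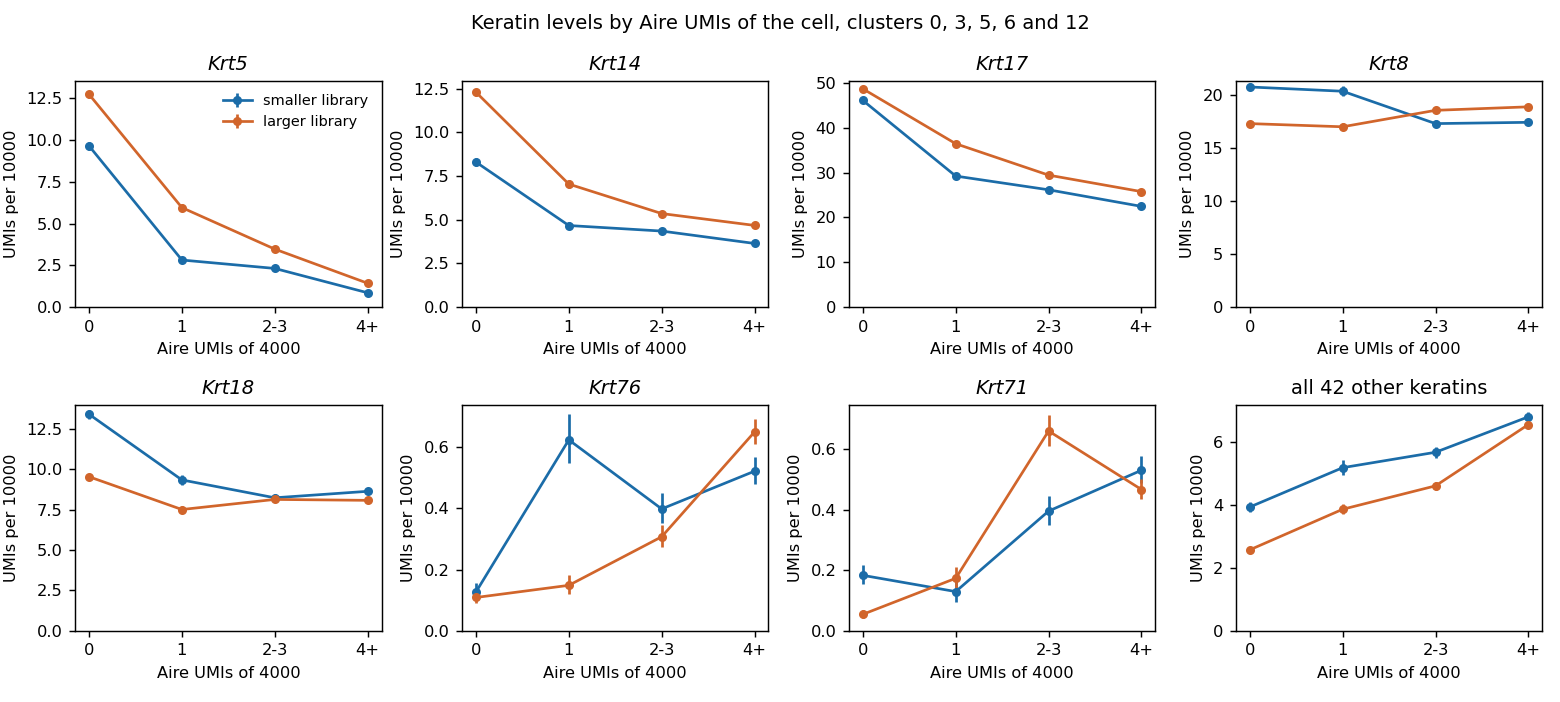
Keratin levels in UMIs per 10000 (y axis, from 0, a scale of its own for each gene) in cells of clusters 0, 3, 5, 6 and 12 with 0, 1, 2 to 3, or 4 or more Aire UMIs after thinning to 4000 UMIs (x axis), in the smaller (blue) and larger (orange) library, with exact Poisson 95% intervals. Krt5, Krt14 and Krt17 are lowest with 4 or more Aire UMIs in both libraries, and the sum of the other 42 keratins is highest there.

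The type I genes lie side by side on chromosome 11 and the type II genes on chromosome 15, with Krt18 beside Krt8 as the exception of type I, and the order of the genes was set beside their detection in single cells. For each pair of the 42 other keratins, the cells of a cluster with at least 1 UMI of both were counted and divided by the number that the separate shares of cells give. In cluster 0, this ratio of summed cells was 2.66 for 35 pairs of neighbours, 1.95 for 91 pairs 2 to 4 genes apart, 1.31 for 295 pairs at least 5 genes apart and 1.31 for 440 pairs on different chromosomes. In cluster 3 the ratios were 2.92, 1.89, 1.24 and 1.20. In cluster 0 neighbours stood at 2.71 in the smaller and 2.60 in the larger library, and pairs on different chromosomes at 1.37 and 1.26, so the libraries gave the same order. Pairs of genes share cells and members, and no test was made.

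**Figure D4:**
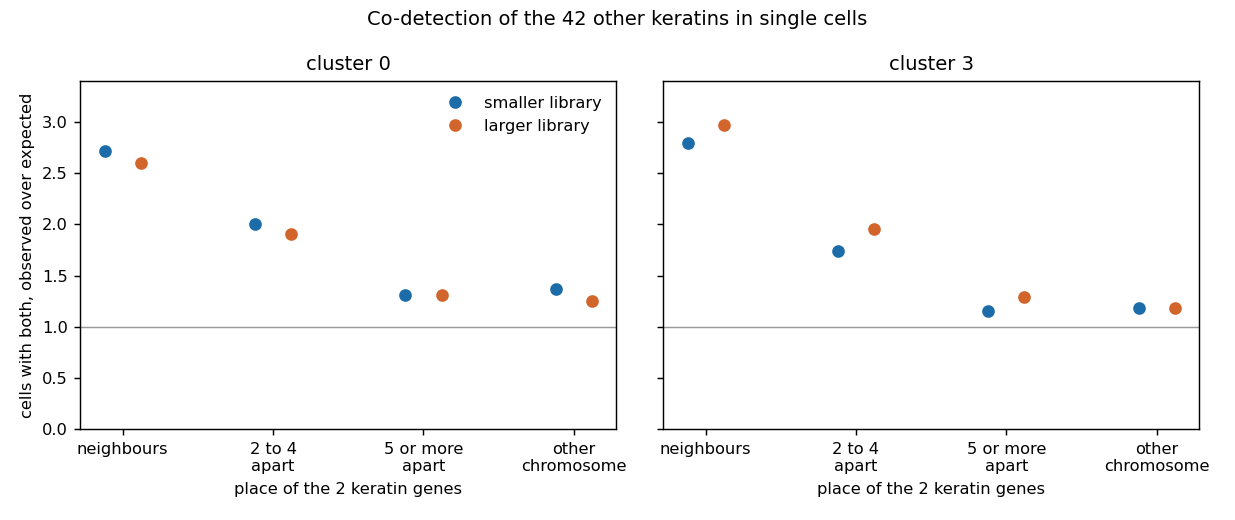
Cells with both keratins of a pair, observed over expected from the separate shares of cells and summed over pairs (y axis, from 0), by the place of the 2 genes (x axis), in clusters 0 and 3 and in the smaller (blue) and larger (orange) library; the grey line marks 1. Neighbours lie highest in both clusters and libraries, and pairs at least 5 genes apart lie with pairs on different chromosomes.

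Of the 23 pairs of neighbours with at least 2 expected cells in cluster 0, 18 reached a ratio of 2, and the highest ratios were those of Krt73 with Krt2, Krt73 with Krt72, and Krt15 with Krt13. On chromosome 15, Krt73, of the inner root sheath, and Krt2, of the upper epidermis, lie 8.34 kb apart. In cluster 0, 68 cells held Krt73, 72 held Krt2 and 40 held both, against 3.20 expected, 12.5 times as many. The numbers were 20 cells against 1.86 in the smaller and 20 against 1.40 in the larger library. In cluster 3, 13 cells held both against 0.595 expected. Krt73 and Krt72 were found together in 25 cells of cluster 0 against 2.13 expected. On chromosome 11, Krt15 and Krt13, of basal layers and of mucosa, were found together in 31 cells against 3.5. Rarer neighbours with under 2 expected cells could reach higher ratios from few cells, such as Krt13 and Krt36 with 27 cells against 1.73. Of all neighbours in cluster 0, Krt77 and Krt76 had the most cells with both, 90 against 28.2. Neighbours with high ratios included keratins of different tissues (Krt73 and Krt2) and of the same tissue (Krt73 and Krt72, of the inner root sheath). Krt71 and Krt73, also of the inner root sheath but 2 genes apart, were found together in 26 cells of cluster 0 against 6.58 and in no cell of cluster 3 against 1.10 (39 and 25 cells). Other neighbours did not stand out: Krt10 and Krt12, 26.3 kb apart, were together in 38 cells against 35.6, and Krt20 and Krt23, 39.8 kb apart, in 32 against 39.6.

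The last 400 bases of the longest coding transcript of each member were searched for words of 50 bases that also occur in another gene. Only exact words were searched, so reads aligned with mismatches and other 3′ ends were not covered. The part of shared reads in the co-detection was not tested. For 43 of 48 members, no word occurred in another gene. Shared words were found for Krt14, Krt16 and Krt17 (5.13% to 6.27% of words, shared with each other), Krt18 (1.43%, with Gm5200) and Krt87 (53.0%, with Gm49425, so that Krt87 counts are uncertain), and none for Krt73, Krt2, Krt72, Krt13, Krt36, Krt15, Krt76 or Krt77. Without pairs that hold a gene with a shared word or lie under 2 kb apart, the ratio of neighbours was 2.60 in cluster 0 and 2.91 in cluster 3. After thinning each cell to 4000 UMIs it was 3.77 and 4.999, against 1.45 and 1.29 on different chromosomes.

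The promoters of the stretch around Krt73 are shown because its 4 genes, Krt71, Krt72, Krt73 and Krt2, follow each other among the members on the minus strand of chromosome 15 and Krt73 shared more cells of cluster 0 than expected with each of the others. Each line gives the 250 bases before the start of the gene in RefSeq (GRCm38.p6), read 5′ to 3′ along the gene, with the TATA box letters TATAAA in capitals where they occur on either strand.
Krt71, chr15:101743098-101743347, minus strand: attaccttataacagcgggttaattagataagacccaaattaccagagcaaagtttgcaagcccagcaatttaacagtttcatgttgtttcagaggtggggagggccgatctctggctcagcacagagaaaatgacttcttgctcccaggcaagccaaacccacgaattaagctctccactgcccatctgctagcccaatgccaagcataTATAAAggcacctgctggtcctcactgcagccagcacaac
Krt72, chr15:101786521-101786770, minus strand: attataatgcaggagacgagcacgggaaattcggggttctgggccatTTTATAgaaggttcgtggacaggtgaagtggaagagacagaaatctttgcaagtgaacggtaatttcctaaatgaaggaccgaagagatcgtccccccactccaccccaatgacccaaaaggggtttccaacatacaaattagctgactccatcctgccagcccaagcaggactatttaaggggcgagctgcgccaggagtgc
Krt73, chr15:101802361-101802610, minus strand: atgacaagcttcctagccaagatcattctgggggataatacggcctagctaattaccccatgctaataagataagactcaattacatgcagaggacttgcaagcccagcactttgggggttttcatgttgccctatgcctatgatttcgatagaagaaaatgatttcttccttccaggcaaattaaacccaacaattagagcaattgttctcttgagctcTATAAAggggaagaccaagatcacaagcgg
Krt2, chr15:101818170-101818419, minus strand: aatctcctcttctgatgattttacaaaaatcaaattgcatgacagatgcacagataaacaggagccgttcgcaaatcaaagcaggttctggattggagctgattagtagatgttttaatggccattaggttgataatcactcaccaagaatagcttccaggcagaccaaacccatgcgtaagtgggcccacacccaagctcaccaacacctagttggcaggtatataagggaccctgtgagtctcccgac
TATAAA was found in 3 of these 4 windows: 40 bases before the start in Krt71, 30 in Krt73 and, on the other strand, 203 in Krt72. Of the 34 members with a RefSeq window of 300 bases, which reaches 50 bases past the start, 17 held TATAAA on either strand. Over windows, this was 48.6% of the 35 windows of members and 13.6% of all 32851. The letters GGGCGG, the core of a GC box, were in 5.71% and 35.7%. The 17 with TATAAA included Krt8, Krt10, Krt12, Krt20 and Krt76. A match of letters is a description and not a bound site. The search took only the exact letters TATAAA for a TATA box. A window without them, such as that of Krt2, is not read as lacking one.

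Between the libraries, 18 of the 44 members with at least 100 UMIs lay past 1.5-fold over all kept cells, against 10.4% of 16986 genes. Krt4 was higher in the larger library and 17 were lower. The median log2 ratio was -0.30 over the 44 members and -0.05 over all genes compared. The 6 abundant keratins lay within 1.5-fold, from 0.02 on the log2 scale for Krt18 (15.7 and 15.9 UMIs per 10000) to 0.32 for Krt5 (6.82 and 8.48). The 4 members under 100 UMIs (Krt34, Krt26, Krt31 and Krt39) were not compared.

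The 17 lower members included epidermal keratins. Krt10 was at 0.738 UMIs per 10000 in the smaller and 0.367 in the larger library (log2 ratio -1.01, range -1.11 to -0.91), Krt77 at 0.486 and 0.259 (-0.91), Krt1 at 0.156 and 0.093 (-0.75) and Krt2 at 0.066 and 0.030 (-1.12). Keratins grouped here as simple were among them too: Krt23 was at 0.255 and 0.111 (-1.20), Krt19 at 0.451 and 0.272 (-0.73) and Krt80 at 0.058 and 0.030 (-0.93). Within cluster 8, however, Krt23 and Krt80 were highest in the keratinocyte-like sub-cluster, at 2.998 and 1.339 over both libraries. In the enterocyte-like one they were at 0.6316 and 0.09383. Krt19 went the other way, at 0.222 in the keratinocyte-like and 1.357 in the enterocyte-like one. Krt23 and Krt80 are therefore not read as marking simple epithelium here. Krt222 was at 0.164 and 0.102 (-0.68). Of the hair keratins, Krt72 (-1.58), Krt73 (-1.15), Krt86 (-0.89), Krt82 (-0.80), Krt84 (-0.77), Krt27 (-0.68), Krt83 (-0.66) and Krt32 (-0.64) were lower, and Krt28 stood at -2.24 with 104 and 32 UMIs. In Krt28, 68 of the 104 UMIs came from 1 cell. Krt4 was at 0.090 and 0.136 (0.60, range 0.38 to 0.82). Without the 5 cells with the most UMIs of the gene in each library, 12 of the 18 stayed past 1.5-fold and none turned. Krt32 then lay near 0 (-0.002) and Krt28 was at -0.32. Without the 1% of cells richest in the gene, 11 of the 18 stayed past it. Krt10, Krt1, Krt4, Krt86, Krt27, Krt28 and Krt82 did not. The share of all genes past 1.5-fold without such cells was not counted. Cluster 8 made up 6.90% of the cells of the smaller and 4.44% of the larger library, and tuft-like cluster 9 made up 4.70% and 2.90%. When the clusters were given the same weights in both libraries, by their share of all UMIs, 8 members stayed past 1.5-fold: Krt10, Krt23, Krt73, Krt86, Krt72, Krt2 and Krt28 lower and Krt4 higher. The share of all genes with these weights was not counted.

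**Figure D5:**
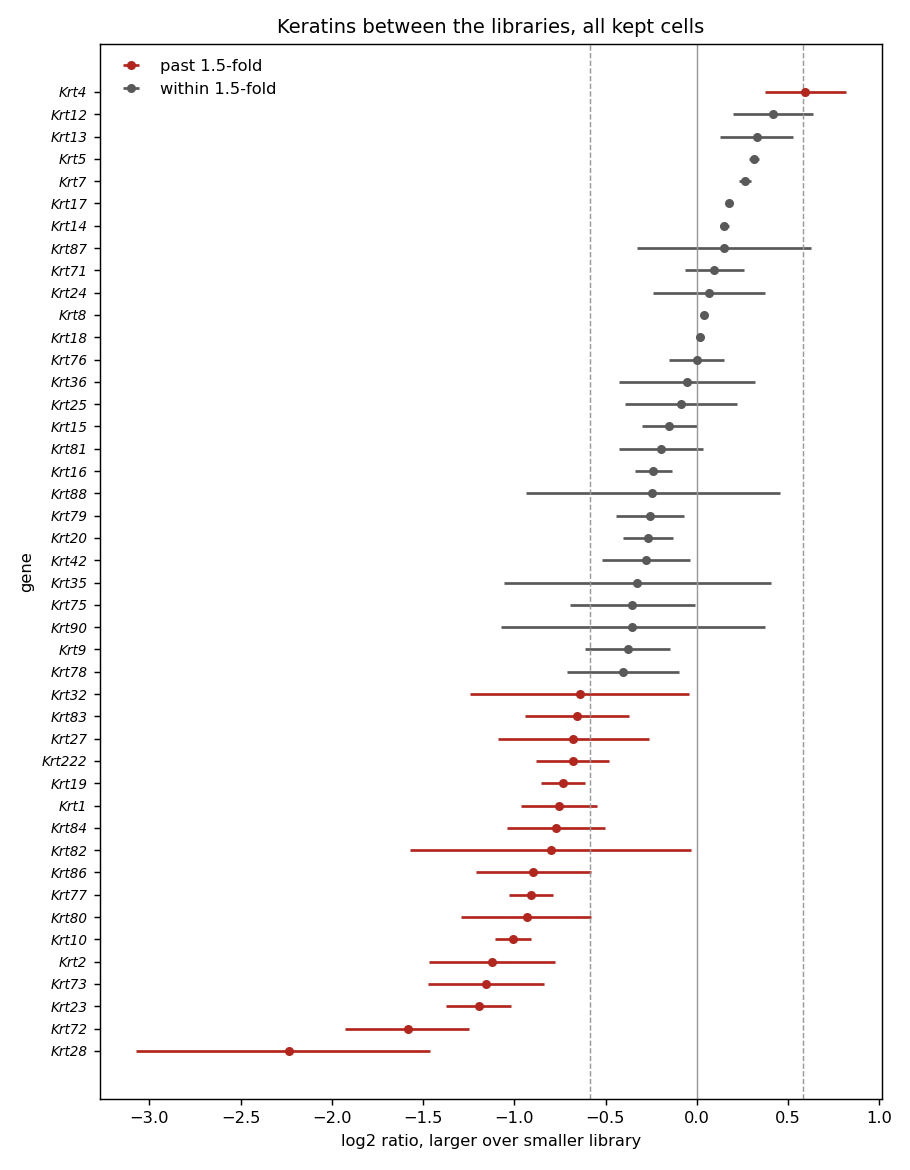
Log2 ratio of the larger over the smaller library (x axis) for the 44 keratins with at least 100 UMIs (rows, ordered by ratio) over all kept cells, with ranges from opposite ends of the exact Poisson 95% intervals; dashed lines mark 1.5-fold. The 17 red points on the left lie past 1.5-fold lower in the larger library, Krt4 lies past it on the right, and the 6 abundant keratins lie near 0.

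Within clusters, the share of members past 1.5-fold ranged widely. In Ccl21a+ mTEC-like cluster 2 no member of 8 lay past 1.5-fold, against 5.45% of all genes compared there, and in cluster 1 it was 1 of 9 (Krt19), against 2.44%. In cluster 5, 1 of 9 lay past it (3.63% of all genes), in cluster 6, 1 of 13 (4.33%), in cluster 4, 2 of 9 (5.08%), and in cTEC-like cluster 7, 1 of 7 (4.8%). In cluster 8 it was 6 of 21 (6.3%), in tuft-like cluster 9, 2 of 9 (5.08%), in cluster 0, 7 of 39 (9.08%), and in Aire+ mTEC-like cluster 3, 13 of 30 (7.61%). The counts of clusters 1, 2, 4, 5, 6, 7 and 9 are 2 genes or fewer and are not read against their backgrounds.

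In cluster 3, Krt5 (0.66), Krt12 (0.63) and Krt24 (0.86) were higher in the larger library, and 10 others were lower: Krt42 at -2.05, Krt86 at -1.47, Krt72 at -1.45, Krt73 at -1.40, Krt13 at -1.28, Krt84 at -1.16, Krt25 at -1.11, Krt15 at -0.93, Krt1 at -0.74 and Krt19 at -0.62. Without the 5 richest cells in each library, 8 of the 13 stayed past 1.5-fold and Krt19 changed direction, to 0.62. Krt13 rested on 7 cells in each library there. Aire itself was at 13.7 and 13.2 UMIs per 10000 in this cluster. In cluster 0, Krt5, Krt13 (1.06) and Krt4 (1.26) were higher in the larger library, and Krt23 (-1.22), Krt2 (-0.97), Krt32 (-0.88) and Krt73 (-0.82) were lower. Krt32 changed direction without the 5 richest cells, to 0.56, and the other 6 stayed past 1.5-fold.

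In cluster 8, Krt10 was lower in the larger library (-1.18, range -1.33 to -1.04), as were Krt77 (-1.04) and Krt80 (-0.66), whereas Krt7 was higher, at 2.66 and 4.98 UMIs per 10000 (0.91, range 0.74 to 1.07). Within its sub-clusters, Krt10 was lower in the larger library in the keratinocyte-like one (-1.83) and higher in the enterocyte-like one (0.98) and in the one led by Bpifa1 (1.21). Krt77 was lower in the keratinocyte-like one (-1.14) and higher in the one led by Bpifa1 (1.43, from 28 and 70 UMIs). Krt7 was higher in the larger library in all 4, from 0.27 (range -0.33 to 0.89) to 1.19. Krt76 (2.75) and Krt4 (2.06) were higher too over the whole cluster, from 24 and 43 UMIs in the smaller library. Without the 5 richest cells, all 6 stayed past 1.5-fold. Krt76 had UMIs in 9 and 17 cells and Krt4 in 9 and 13, so few cells with a UMI were then left for them. Krt7 had UMIs in 140 of 223 and 150 of 225 cells, the most of these 6 genes, so its share of cells was near-equal in the libraries. In the larger library, 226 of its 1564 UMIs came from 1 cell, and its log2 ratio without the 5 richest cells of each library was 0.76. In tuft-like cluster 9, Krt222 (-0.75) and Krt5 (-0.59) were lower in the larger library. Krt15 was higher in it in clusters 4 (0.92), 5 (2.50, from 8 UMIs in 3 cells and 97 in 31) and 6 (1.39, from 24 UMIs in 4 cells and 139 in 23), and Krt19 was lower in cluster 4 (-0.75) and in cluster 1 (-0.70, from 100 and 97 UMIs, and 0.039 without the 5 richest cells of each library).

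Krt5 was the abundant keratin past 1.5-fold in the most clusters, 4 of the 10. It was higher in the larger library in cluster 0 (0.59), in cluster 3 (0.66) and in cTEC-like cluster 7, where it was at 6.22 and 9.47 UMIs per 10000 (0.61, range 0.50 to 0.72) and had UMIs in 64.9% and 83.2% of cells. The thinned share of cTEC-like cells with both Krt5 and Krt8 was 51.7% and 70.1%. In the mitotic cluster 6 it was also higher in the larger library, at 4.88 and 7.19, just within 1.5-fold (0.56, range 0.48 to 0.65). Cluster 4 was at 0.34, cluster 5 at 0.14 and cluster 8 at -0.10. In clusters 1 and 2, where Krt5 is most abundant, it was near-equal, with log2 ratios of 0.01 and 0.07. In clusters 0, 3 and 9 Krt5 was found in shares of cells that were not read as expression of the whole cluster above. The part of free RNA in these ratios was not tested.

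Genes that work with keratins were counted in the same way over all kept cells, from a list. Keratin filaments are anchored at desmosomes and hemidesmosomes. Of 11 desmosome genes, 1 lay past 1.5-fold between the libraries (Dsc1, lower in the larger, with 108 UMIs and a range that includes 0), and of 5 genes of hemidesmosomes and basal adhesion, none did, against the 10.4% of all genes. Dsp, which ties keratins to the desmosome, was highest in cTEC-like cluster 7, at 6.47 UMIs per 10000, and Itga6, a laminin receptor of basal cells, in Ccl21a+ mTEC-like cluster 2, at 7.43. Of 11 genes of the cornified envelope, which encases the outer cells of the epidermis, 10 were highest in cluster 8, as were Krt10, Krt77 and Krt1, and Lor in cluster 0 (0.635). The share of all genes highest in cluster 8 was not counted, so this count is not read as particular to the envelope. Flg, Ivl, Lor, Sbsn and Krtdap were also among the markers for naming the keratinocyte-like sub-cluster. Of the 11, 5 lay past 1.5-fold, against the same 10.4%, and were lower in the larger library: Flg (-1.32), Ivl (-1.23), Tgm3 (-1.005), Sbsn (-0.67) and Evpl (-0.62), the direction that Krt10, Krt77 and Krt1 took. Within 1.5-fold, Sprr1a (-0.51), Sprr1b (-0.47), Krtdap (-0.43), Ppl (-0.20) and Tgm1 (-0.13, with a range that includes 0) were lower and Lor (0.21) was higher. Cluster 8 made up 6.90% of the smaller and 4.44% of the larger library, and the part of this in the ratios was not tested. Vim, the filament protein of mesenchyme, was highest in Aire+ mTEC-like cluster 3, at 7.94, and lay within 1.5-fold. Of 9 epithelial transcription factors, Klf4 lay past it, at 1.10 and 0.495 (-1.15), and Trp63, the factor of basal epithelia, was at 1.37 and 1.39.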

How the data were processed

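TECs were measured by droplet 3′ scRNA-seq, and the authors deposited raw UMI counts per gene and barcode, without normalization. The headers name Cell Ranger 5.0.1, the submitters' processing notes Cell Ranger 5.1, and the study aligned to mm10 (GRCm38). Barcodes with over 2000 and under 7500 detected genes (over genes in at least 5 barcodes) and under 15% mitochondrial UMIs were kept. Doublets were limited by the upper gene number alone. The keratin members and all lists were chosen with earlier results of these data known.

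Seurat 5.3.0 in R 4.3.3 was run with 3000 variable genes, 2000 anchor features, 20 components and resolution 0.5, without keratins. A cluster's leading genes are its 10 highest by fold, taken from genes that 25% or more of its cells held. Log2 ratios used 0.5 added UMIs and genes with at least 100 UMIs. Thinning to 4000 UMIs left out 5 cells of the larger library. Named keratins are the 24 with the most UMIs, those with at least 5 times their overall level in a cluster, those nearest the 20-UMI threshold and those past 1.5-fold, besides pairs and hair keratins named after their values were seen. Sub-clusters, co-detection and promoters were chosen after seeing the data. The library ratios were tested on simulated Poisson counts and the co-detection ratio on independent detections. Neither held UMIs concentrated in few cells, so they do not show how often such cells give a 1.5-fold ratio. Python 3.11.15, NumPy 2.4.6, SciPy 1.17.1, pandas 2.3.3 and matplotlib 3.10.9 were used. Sample groups follow the labels in name, and the libraries were compared without a condition. Alternatives changed the cell filters, clustering, summary over cells, UMI minimum, fold and cluster weights.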

Additional observations from a re-analysis of the deposited data

Results flagged for a closer look

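For 3 keratins the difference between the libraries took opposite directions past 1.5-fold in different clusters, with ranges that did not include 0. With 1 library per condition the difference between clusters was not tested.

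Krt5 was higher in the larger library in cluster 0 (log2 ratio 0.59), cluster 3 (0.66) and cTEC-like cluster 7 (0.61), and lower in tuft-like cluster 9 (-0.59). In clusters 0, 3 and 9 its detection was not read as expression of the whole cluster, so the opposite direction rests on such levels. The part of free RNA was not tested. Krt15 was lower in the larger library in Aire+ mTEC-like cluster 3 (-0.93) and higher in cluster 4 (0.92) and in the TA-mTEC-like clusters 5 (2.50, 3 cells with a UMI in the smaller and 31 in the larger library) and 6 (1.39, 4 and 23 cells). Krt13 was higher in cluster 0 (1.06) and lower in cluster 3 (-1.28). In cluster 3, Krt13 and Krt15 were no longer past 1.5-fold without the 5 cells richest in the gene in each library, at -0.51 and -0.51, whereas Krt5 was at 0.79. In cluster 9, Krt5 was at -1.25 without them.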

How the results depend on the processing

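The number of keratin members was 45 to 48 under the alternatives tried, and the number of the other 42 keratins that were highest in cluster 0, 3 or 8 was 34 to 40, against 40. The single highest cluster of a gene was kept less often: with resolution 0.3, 7 of the 42 had the same one, and with the other alternatives 24 to 40. Of the 10 clusters compared, 8 had a counterpart with resolution 0.3 and with a mitochondrial share under 10%, and 9 without integration. A gene whose highest cluster had no counterpart could not keep it, and this limit holds for the abundant keratins too. Of the abundant keratins, Krt14 changed its highest cluster under 6 of 9 alternatives, Krt7 under 4, Krt5 under 3 and Krt17 under 1. Levels in cluster 8 moved by more than 1.5 times: Krt10, at 5.44, ranged from 0.069 with a lower minimum of detected genes to 11.98 without the 5% deepest cells and was 0.161 without the richest 1% of cells, and Krt20, at 1.92, ranged from 0.202 with keratins among the features to 6.11 with that minimum. The level of the 42 keratins with 4 or more Aire UMIs over that with none was 2.17, and 1.79 in all kept cells, 2.60 with unthinned Aire levels and 2.41 as a mean over cells. Within clusters 0 and 3, chosen after seeing the data, it was 1.35 and 1.62. For 1.79, 2.41, 1.35 and 1.62 the cells were thinned anew, so these can differ slightly from ratios of the levels given above. Past 1.5-fold between the libraries were 18 members, 6 with a limit of 2-fold, 11 with the same weight for each cluster and 8 with clusters weighted as in both libraries pooled. Directions turned with the same weight for each cluster for Krt19 (0.21), Krt1 (0.031), Krt80 (0.29) and Krt82 (0.22), without the 1% of cells richest in the gene for Krt4 (-0.15), and without the 5% deepest cells for Krt32 (0.12). The cause was not tested. Of the 18, 11 stayed past 1.5-fold without the richest 1% of cells. The share of all genes past the limit was not counted under these alternatives, so their counts have no background. Neighbour co-detection was 2.66 in cluster 0 and 2.92 in cluster 3, 3.77 and 4.999 after thinning, and 4.75 and 5.94 with at least 2 UMIs of each gene. No paired analysis was possible because each condition has 1 library.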
